A study of Mus musculus with 2 samples.

Results

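The Hox cluster miRNAs are 6 genes, Mir10a, Mir10b, Mir196a-1, Mir196a-2, Mir196b and Mir615, out of 2202 miRNA genes in the count tables. They were chosen by name, and all 6 were found. MicroRNAs (miRNAs) had been sequenced from adrenal glands of male B6CASTF1/J mice, a first-generation cross of CAST/EiJ, derived from wild mice, with C57BL/6J, on postnatal day 4. The series holds 1 group of 2 libraries, called replicates 1 and 2, from males numbered 3 and 4 with the same donor label. It holds no second group, treatment, age or tissue, so the values describe levels and how far the 2 libraries differed. What comes from the animal, the dissection or the library preparation cannot be told apart.

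Hox genes encode transcription factors that give cells their position along the body axis, and in mammals they sit in clusters whose order matches the order of the body regions in which they act. The miRNA genes between them are switched on with their neighbours and, once processed, pair with messenger RNAs mainly through the seed, bases 2 to 8 of the mature strand. MiR-10 genes lie beside Hox genes of paralogous group 4, miR-196 genes beside those of group 9, and miR-615 within Hoxc5. MiR-196 is known for cutting the Hoxb8 messenger RNA in mouse embryos, and miR-10 for repressing more anterior Hox genes in zebrafish. The adrenal cortex arises near the kidney and gonad, whereas the medulla comes from neural crest cells.

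The mature sequences below, from RefSeq on GRCm38.p6, are shown because the members group by them into 3 seed families. Capitals mark the seed.
mmu-miR-10a-5p: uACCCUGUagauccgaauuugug
mmu-miR-10b-5p: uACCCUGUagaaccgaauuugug
mmu-miR-196a-5p: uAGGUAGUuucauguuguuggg
mmu-miR-196b-5p: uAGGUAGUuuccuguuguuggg
mmu-miR-615-5p: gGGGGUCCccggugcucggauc
mmu-miR-615-3p: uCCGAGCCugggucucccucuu

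Mir10a and Mir10b shared the seed ACCCUGU with no other gene of the RefSeq miRNA table. Their 5p forms, both of 23 bases, differed by 1 substitution, U12A from miR-10a to miR-10b, counted from the 5′ end. The 3 miR-196 genes shared the seed AGGUAGU, likewise with no other gene of that table. MiR-196a-5p and miR-196b-5p, both of 22 bases, differed by A12C, so in both families the only difference lay at position 12 and outside the seed. No other gene shared the seed of either arm of Mir615.

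Mir196a-1 and Mir196a-2 make the same miR-196a-5p. The hairpins of this pair are shown because their longest shared run, 22 bases, is the mature form itself. Capitals mark both arms.
Mir196a-1: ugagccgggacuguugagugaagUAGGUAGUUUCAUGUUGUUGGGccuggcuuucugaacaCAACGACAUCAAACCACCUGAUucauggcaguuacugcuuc
Mir196a-2: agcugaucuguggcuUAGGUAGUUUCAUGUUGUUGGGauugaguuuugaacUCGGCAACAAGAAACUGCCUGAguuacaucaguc
A read of exactly these 22 bases fits both hairpins, and the deposited tables set reads with more than 1 locus aside. The counts of Mir196a-1 and Mir196a-2 therefore do not give the level of miR-196a, which is uncertain. By contrast the longest run that a miR-10 5p form shared with another hairpin was 11 bases, and for miR-196b-5p it was also 11 bases.

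The members were spread over all 4 Hox clusters, with 1 in Hoxa, 2 in Hoxb, 2 in Hoxc and 1 in Hoxd. Positions are on mm10 and counted from 1. Mir10a lies between annotated genes on chromosome 11, 96317165 to 96317274, plus strand, 992 bases upstream of Hoxb4. Mir10b lies on chromosome 2, 74726070 to 74726137, plus strand, within introns of annotated transcripts of Hoxd3 and Hoxd4. Mir196a-1, at chromosome 11, 96265164 to 96265265, plus strand, lies between annotated genes 6191 bases upstream of Hoxb9. Mir196a-2, at chromosome 15, 102973350 to 102973434, plus strand, lies 1456 bases downstream of Hoxc10 and 3004 bases upstream of Hoxc9. It also falls in an intron of a long annotated form of Hoxc5. Mir196b, at chromosome 6, 52230081 to 52230165, minus strand, overlaps an annotated exon of Hoxa9. Mir615, at chromosome 15, 103014910 to 103015001, plus strand, lies in an intron of Hoxc5.

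One further miRNA gene lay inside a cluster, Gm44463 in Hoxd. It had 0 counts in both libraries, which allows a level of up to 0.757 CPM (counts per 1000000 miRNA counts) in replicate 1 and 1.78 CPM in replicate 2, taking 3 counts as the limit.

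**Figure D1:**
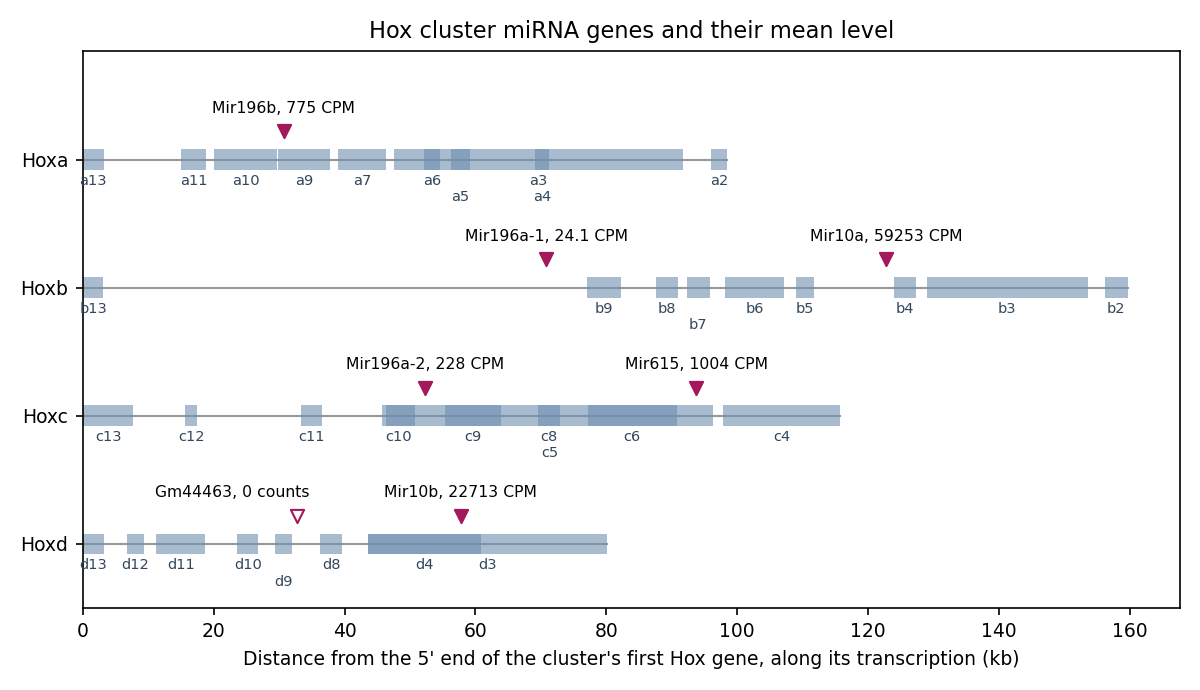
Position of the miRNA genes in the 4 Hox clusters. The x axis is the distance in kb from the 5′ end of the first Hox gene along the direction of transcription, blue boxes are Hox genes (a13 is Hoxa13) except those of paralogous group 1, which are not drawn, triangles are miRNA genes, and the number beside each is its mean level in CPM over 2 libraries. The highest levels were those of Mir10a beside Hoxb4 and Mir10b in introns of Hoxd3 and Hoxd4.

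Levels in CPM are sense-strand counts of a gene scaled to 1000000 sense-strand miRNA counts of the library. Replicate 1 had 3961630 such counts and replicate 2 had 1686822. The strand opposite to the members held 2 counts for Mir10a in replicate 1 and otherwise 0. Counts were not divided by precursor length, since a read is a short RNA of about mature size. All 6 members reached the 10 counts in each library that detection asked for, as did 340 of all 2202 genes. Together the members held 8.36% of miRNA counts in replicate 1 (exact 95% interval 8.34 to 8.39%) and 8.43% in replicate 2 (8.39 to 8.48%). In CPM these totals were 83645 and 84349, with a mean of 83997 ± 497 (SD, n = 2). The SD of the total was 3913 CPM under scaling with trimmed means (TMM), so the closeness of the 2 totals depends on the scaling. In whole glands, fewer cells of a type and less RNA per cell cannot be told apart.

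The miR-10 pair made up almost all of these counts, 97.4% in replicate 1 and 97.8% in replicate 2. For Mir10a, the member beside Hoxb4, the level was 65562 CPM (65319 to 65807) from 259734 counts in replicate 1, and 52943 CPM (52605 to 53282) from 89305 counts in replicate 2. By these counts it ranked 2 among all miRNA genes in replicate 1 and 4 in replicate 2. Ranks leave out reads with more than 1 locus, 27.0% of all reads in replicate 1 and 25.7% in replicate 2, so genes whose mature form has several loci can stand too low. For Mir10b it was 15904 CPM (15781 to 16027) from 63004 counts in replicate 1, and 29522 CPM (29268 to 29779) from 49799 counts in replicate 2. Its rank was 20 in replicate 1 and 9 in replicate 2. Mir10a was thus the higher of the pair in both libraries, and the libraries differed in opposite directions for the 2 genes.

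Mir615 stood at 1018 CPM (987 to 1050) from 4034 counts in replicate 1 and at 989 CPM (942 to 1037) from 1668 counts in replicate 2, at ranks 89 and 88. Mir196b had 3571 and 1095 counts, or 901 CPM (872 to 931) in replicate 1 and 649 CPM (611 to 689) in replicate 2. Mir196a-2 had 936 and 372 counts, or 236 CPM (221 to 252) in replicate 1 and 221 CPM (199 to 244) in replicate 2. Mir196a-1 had 92 and 42 counts, or 23.2 CPM (18.7 to 28.5) in replicate 1 and 24.9 CPM (17.9 to 33.7) in replicate 2. The intervals of the 2 libraries overlapped for Mir615, Mir196a-2 and Mir196a-1 and did not overlap for Mir196b, Mir10a and Mir10b. By another criterion, the exact binomial test described below, 62.1% of 404 tested genes differed at any size. The share of all genes whose intervals did not overlap was not taken, so the overlap in the members cannot be set beside it.

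As means with the standard deviation (SD) over 2 libraries, the order was Mir10a with 59253 ± 8923 CPM, Mir10b with 22713 ± 9630 CPM, Mir615 with 1004 ± 20.8 CPM, Mir196b with 775 ± 178 CPM, Mir196a-2 with 228 ± 11.1 CPM and Mir196a-1 with 24.1 ± 1.19 CPM. The values of Mir196a-1 and Mir196a-2 cover only reads that fit 1 of the 2 loci, so their place in this order is that of their counts, not of miR-196a. Each neighbouring pair in this order was in the same order in both libraries. The counting intervals of neighbours in this order did not overlap in either library. As a ratio, the gap between Mir615 and Mir196b was the smallest in both libraries, 1018 against 901 CPM in replicate 1 and 989 against 649 CPM in replicate 2. The spread over 2 libraries was 2.07% of the mean for Mir615, 4.87% for Mir196a-2, 4.93% for Mir196a-1, 15.1% for Mir10a, 23.0% for Mir196b and 42.4% for Mir10b.

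**Figure D2:**
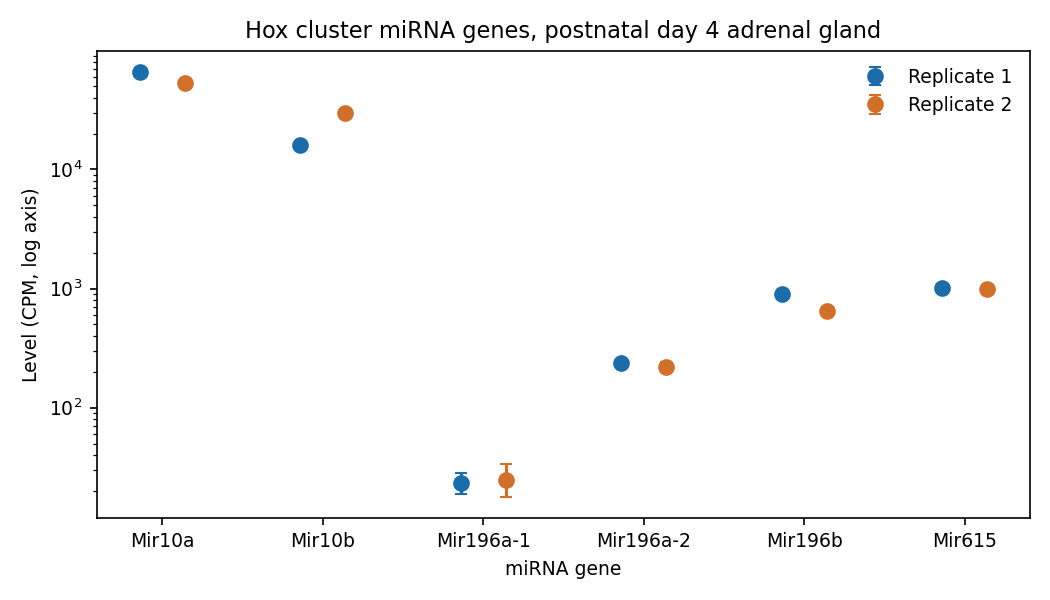
Level of each Hox cluster miRNA gene in CPM on a log axis, with replicate 1 left of replicate 2 and exact 95% intervals that cover counting error only. Values run from 24.1 CPM for Mir196a-1, where reads that also fit Mir196a-2 are not counted, to 59253 CPM for Mir10a on average, and the points of the 2 libraries lie apart mainly for Mir10b and Mir196b.

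The composition of the Hox miRNA counts differed between the libraries more than their total. Mir10a held 78.4% of them in replicate 1 (78.2 to 78.5%) and 62.8% in replicate 2 (62.5 to 63.0%). Mir10b held 19.0% (18.9 to 19.1%) and 35.0% (34.8 to 35.2%), in the same order. Mir615 held 1.22% and 1.17%, and the 3 miR-196 genes 1.39% and 1.06%. Within the miR-10 pair, Mir10a made up 80.5% of counts in replicate 1 (80.3 to 80.6%) and 64.2% in replicate 2 (63.9 to 64.5%), a ratio of Mir10a to Mir10b of 4.12 and 1.79. The share differed by 16.3 percentage points, and the odds of a Mir10a count were 2.30 times as high in replicate 1. This ratio within a library does not depend on how the libraries are scaled to each other. Fisher's exact test, two-sided, gave a p too small to be represented, but it compares these 2 libraries and covers counting error only.

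**Figure D3:**
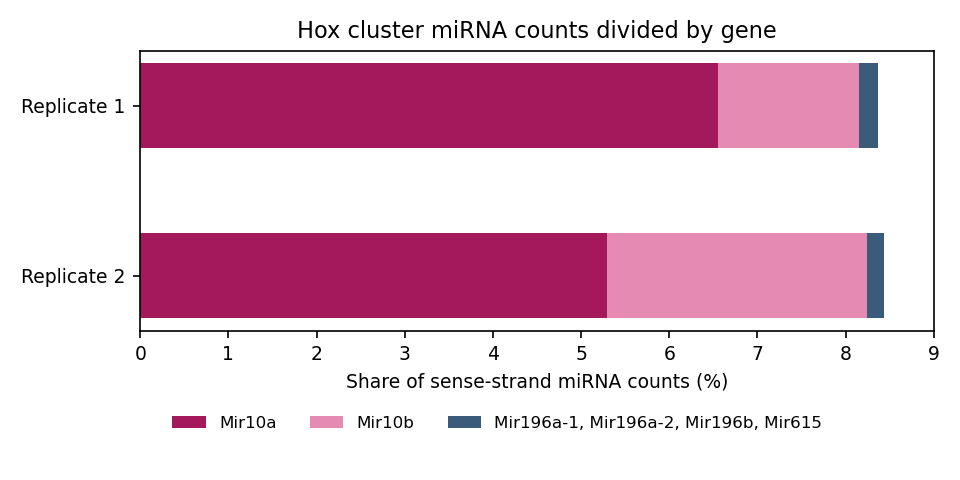
Share of all sense-strand miRNA counts held by Mir10a, Mir10b and the other 4 genes, in percent, with replicate 1 above replicate 2. The bars end at 8.36% and 8.43%, while the Mir10a part is 6.56% in replicate 1 and 5.29% in replicate 2 and the Mir10b part 1.59% and 2.95%.

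Ratios were taken for 6 pairs of genes in all, with p-values adjusted over them by the Benjamini-Hochberg method. Mir196b to Mir196a-2, the miR-196 genes with the most counts, stood at 3.82 in replicate 1 and 2.94 in replicate 2 (adjusted p = 0.000551, Fisher's exact test). That ratio leaves out reads fitting Mir196a-1 and Mir196a-2 alike, so it does not compare the levels of miR-196b and miR-196a. Mir196a-2 to Mir196a-1, the loci of 1 mature form, stood at 10.2 (8.21 to 12.7) and 8.86 (6.43 to 12.5), with an adjusted p of 0.566 by Fisher's exact test. Mir196a-2 was the higher locus in both libraries, but only reads that told the loci apart entered these ratios. In the Hoxc cluster, Mir615 to Mir196a-2 stood at 4.31 (4.01 to 4.63) and 4.48 (4.00 to 5.03), with the same adjusted p of 0.566. In the Hoxb cluster, Mir10a to Mir196a-1 stood at 2823 (2302 to 3502) and 2126 (1573 to 2951), with an adjusted p of 0.206. Both ratios are of counts that leave out reads fitting Mir196a-1 and Mir196a-2 alike, so they do not compare the levels of the mature forms. At this depth no difference between the libraries was detectable in either ratio.

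To see how the members stood among all genes, each gene's counts in the 2 libraries were compared with the library totals by an exact binomial test, two-sided. It covered the 404 genes that reached 10 counts in 1 library or both, with Benjamini-Hochberg adjustment. A gene was called different at an adjusted p under 0.05 and a log2 ratio of replicate 1 over replicate 2, on CPM + 0.5, beyond 1 in either direction. This rule called 74 genes, or 18.3% of those tested, and none of the 6 members. With the size threshold at 0.58 it called 132 genes, or 32.7%, and 1 member, Mir10b. At any size, an adjusted p under 0.05 was reached by 251 genes, or 62.1%, and by 3 of the 6 members, with the same 3 at an unadjusted p under 0.05. Mir10a (log2 ratio 0.31) and Mir196b (0.47) were higher in replicate 1, as were 32.4% of tested genes at any size, and Mir10b (-0.89) was lower, as were 29.7%.

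Mir10b was 1.86-fold lower in replicate 1 (1.83 to 1.88). Mir10a was 1.24-fold higher in replicate 1 (1.23 to 1.25) and Mir196b 1.39-fold higher (1.30 to 1.49, adjusted p = 6.47e-22, exact binomial test). The log2 ratio was 0.10 for Mir196a-2, 0.04 for Mir615 and -0.10 for Mir196a-1, with adjusted p-values of 0.355, 0.402 and 0.780 by the exact binomial test. In fold terms the intervals of replicate 1 over replicate 2 were 0.949 to 1.21 for Mir196a-2, 0.972 to 1.09 for Mir615 and 0.641 to 1.38 for Mir196a-1. Under TMM scaling, which moved the median tested gene by 0.11, Mir196a-1 stood at 0.01, Mir196a-2 at 0.21 and Mir615 at 0.15. By the exact binomial test Mir615 then had an adjusted p of 0.000721 and Mir196a-2 of 0.0341, so whether these genes pass at any size depends on the scaling. The share of all tested genes that pass at any size under TMM scaling was not taken, so the members cannot be set beside it.

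Among the 404 tested genes log2 ratios had a median size of 0.50, and among the 6 members of 0.20. The tested genes were not matched to the members for level, and ratios of genes with few counts carry more counting error. Mir10b was exceeded in size by 97 of the tested genes, Mir196b by 212, Mir10a by 274, Mir196a-2 by 357, Mir196a-1 by 358 and Mir615 by 383. The edgeR common dispersion over 340 genes was 0.157, a biological coefficient of variation of 0.396. With that dispersion the SD of a log2 ratio between 2 such libraries is 0.81, against the -0.89 of Mir10b and sizes of 0.47 or less for the other members. The dispersion was estimated from these same 2 libraries, with members and called genes included. It is therefore not an independent measure of the spread between animals.

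**Figure D4:**
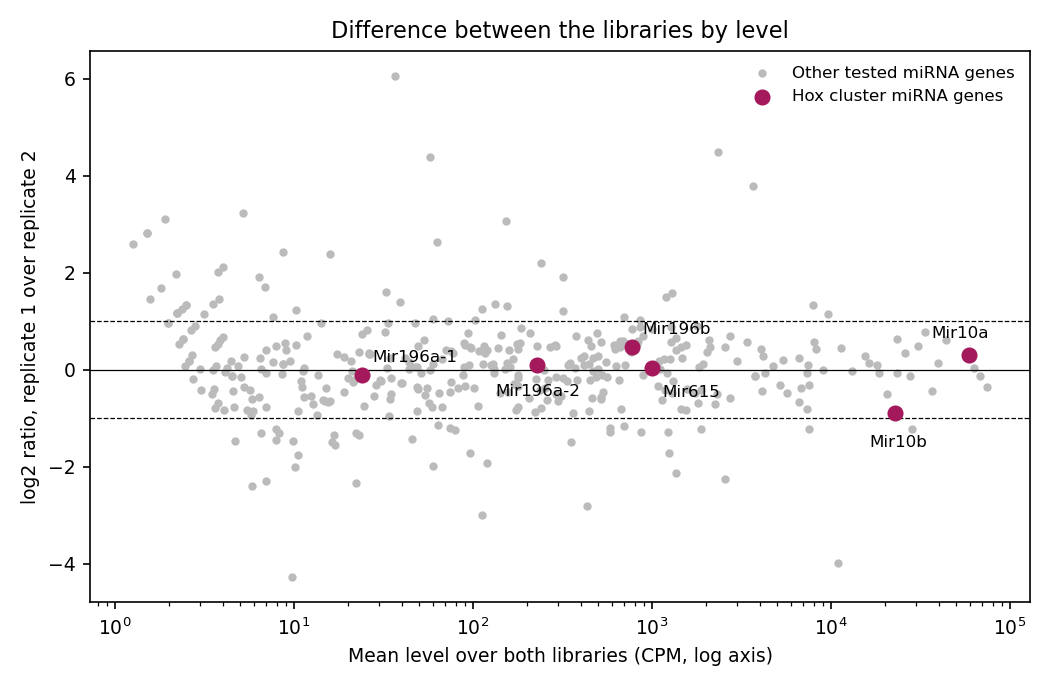
Log2 ratio of replicate 1 over replicate 2 against mean level in CPM (log axis) for 404 tested miRNA genes, with the Hox cluster genes in colour. Dashed lines mark the size threshold of 1, and all 6 members lie between them, with Mir10b at -0.89 nearest to it.

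Markers of other cells and tissues also differed between the libraries. Liver Mir122 was at 1299 CPM in replicate 1 and 20602 CPM in replicate 2. The 3 red blood cell genes Mir451a, Mir144 and Mir486 summed to 7248 and 595 CPM, with 2 of 3 called higher in replicate 1. Of 9 striated muscle genes, 4 were tested, 3 were called lower in replicate 1 and Mir133a-2 had no counts. Their sums were 1146 and 2698 CPM, of which Mir206 alone held 1130 and 2646 CPM. The 5 kidney genes summed to 241 and 379 CPM, with 2 called higher and 2 called lower in replicate 1. Mir126a of endothelium, at 65222 and 83391 CPM, and the 5 stromal genes, at 44515 and 41751 CPM, had no call. The 4 neuroendocrine genes, which hormone-secreting cells of neural type express, were all detected and summed to 36299 and 46670 CPM with 1 called higher in replicate 1. The 8 neuronal genes summed to 1087 and 688 CPM, with 1 detected, 1 of the 2 tested called higher in replicate 1, and no counts for Mir124a-2 and Mir124a-3. Reads with more than 1 locus are left out here too, so genes whose mature form has several loci can stand too low. Few or no counts of a listed gene therefore do not show that its mature form was absent. The part of these cells and tissues in the differences of Mir10a, Mir10b and Mir196b was not tested.

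The nearest relatives of miR-10 by sequence are miR-99 and miR-100, which lie outside the Hox clusters. They are shown because they carry the middle of miR-10 moved by 1 base, which gives them another seed. Capitals mark the longest run shared with miR-10a-5p.
mmu-miR-10a-5p: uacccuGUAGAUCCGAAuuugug
mmu-miR-100-5p: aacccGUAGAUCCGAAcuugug
mmu-miR-99a-5p: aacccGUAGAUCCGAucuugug
Mir99a, Mir99b and Mir100 together held 3.77% of miRNA counts in replicate 1 and 3.23% in replicate 2, so the miR-10 pair, at 8.15% and 8.25%, was the more abundant. Mir99a had 22770 and 23826 CPM, with a mean close to that of Mir10b. It stood above Mir10b in replicate 1 (15904 CPM) and below it in replicate 2 (29522 CPM). Mir100 had 3608 and 3963 CPM. Mir99b had 11334 and 4490 CPM, was 2.52-fold higher in replicate 1 (2.46 to 2.59), and was the only one of the 3 that was called. The ratio of Mir10a to Mir99a was 2.88 in replicate 1 and 2.22 in replicate 2 (adjusted p = 1.07e-283 over the 6 pairs, Fisher's exact test, counting error only).

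MiR-196 in turn carries the letters AGGUAGU of its seed at bases 2 to 8, and let-7g carries them at bases 3 to 9. Let-7 is a large family that rises as tissues mature, and the pair is shown because let-7g is among the genes most like Mir10a in level.
mmu-miR-196a-5p: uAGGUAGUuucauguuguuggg
mmu-let-7g-5p: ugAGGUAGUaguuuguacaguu

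Likeness in level was measured as the distance between log2(CPM + 0.5) values over the 2 libraries, which for so few libraries reflects mean level and 1 difference only. Nearest to Mir10a were Mirlet7i (distance 0.24), Mirlet7g (0.43) and Mir126a (0.66). Nearest to Mir10b were Mirlet7d (0.31), Mir21a (0.43) and Mir99a (0.60). Mir615 lay nearest to Mir380 (0.05), Mir542 (0.20) and Mir29a (0.22). Mir196b lay nearest to Mir152 (0.07), Mir27a (0.13) and Mir137 (0.13). Mir196a-2 lay nearest to Mir186 (0.04), Mir1981 (0.20) and Mir340 (0.20), and Mir196a-1 to Mir6516 (0.24), Mir384 (0.26) and Mir547 (0.27). No member was among the 3 nearest genes of another member.

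Seed matches in Hox messenger RNAs were counted in the longest annotated 3′ untranslated region (UTR) of each gene, on the messenger strand, as a description of sequence. Messenger RNAs were not measured here. The letters ACTACCT, complementary to the miR-196 seed, occurred in 9 of 39 Hox genes (23.1%), against 6.10% of 21037 protein-coding genes. The median UTR length was 966 bases for Hox genes and 960 bases for all genes. In the first 500 bases of UTRs at least that long, they occurred in 8 of 34 Hox genes (23.5%), against 1.98% of 14301 genes. These letters overlap those that pair with let-7. Hoxa7 held 4 matches and Hoxc8 held 2, and no other Hox gene held more than 1.

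For miR-10 the letters ACAGGGT occurred in 4 of 39 Hox genes (10.3%), against 12.5% of all genes. For miR-615-3p, GGCTCGG occurred in 1 Hox gene, Hoxb4 (2.56% of 39), against 2.30% of all genes. For miR-615-5p, GGACCCC occurred in 4 Hox genes (10.3%), Hoxa11, Hoxb13, Hoxc6 and Hoxc11, against 6.57%. In the first 500 bases of UTRs at least that long, the miR-10 letters occurred in 1 of 34 Hox genes (2.94%), against 4.78% of 14301 genes. There the miR-615-3p letters occurred in 0 Hox genes, against 1.01%, and the miR-615-5p letters in 4 (11.8%), against 3.29%.

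Over the whole length of miR-196a-5p, Hoxb8 had the best ungapped match of all UTRs searched, at a site without the letters ACTACCT. The site is shown because its cutting by miR-196 is known. Capitals mark bases that pair with miR-196a-5p, and the lower-case base faces base 5 of the miRNA as a G:U pair.
Hoxb8 site: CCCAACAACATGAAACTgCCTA
Of its 22 bases, 21 matched, against 17 in the next best genes, and 20 matched miR-196b-5p.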

How the data were processed

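The deposited tables hold whole-number read counts per miRNA gene, 1 table per library, made by the authors on mm10 with annotation M21, per the file lists that accompany them. The aligner, its version, trimming and read filters are not given in the sources used here. Rows for reads with more than 1 locus, outside miRNA genes or unaligned, 66.3% of replicate 1 and 74.3% of replicate 2, were left out of totals. All 2202 identifiers matched GENCODE M21. The third table column was used as the sense strand, since that strand column held more counts. CPM, log2 ratios, exact Clopper-Pearson 95% intervals and the tests were computed with Python 3.11.15 and scipy 1.17.1, and the dispersion with edgeR 4.0.16 under R 4.3.3. DESeq2 1.42.0 gave another scaling. Reads are not independent molecules, so intervals and tests cover counting error only, and p-values measure the difference between these 2 libraries. Named genes were all 6 members, the 3 genes nearest to each in level, Mir99a, Mir99b, Mir100, any other miRNA gene inside a Hox cluster, and marker lists. Those members and lists were chosen with earlier results of these data known. Mature and hairpin sequences are from RefSeq, in which all 6 members had a mature entry. UTRs are those of GENCODE M21 transcripts. Alternatives covered the scaling, the count column, the denominator, the pseudocount, the filter and the size threshold.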

Additional observations from a re-analysis of the deposited data

How the results depend on the processing

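With 2 libraries, leaving 1 out cannot move a mean by more than its SD: the summed level was then 83645 to 84349 CPM. TMM and DESeq2 scaling moved each level by less than its SD, and so did the either-strand column and the denominator without called genes (chosen after seeing the data) for Mir10a, Mir10b and Mir196b. The other levels moved by more than their SD because the denominators differ. In the either-strand column the sum was 95922 CPM, Mir196a-1 27.5, Mir196a-2 261 and Mir615 1146 CPM. Without called genes the sum was 92228 CPM, Mir196a-1 26.4, Mir196a-2 251 and Mir615 1102 CPM. Scaled to 1000000 reads of all kinds the sum was 24925, Mir10a 17843, Mir10b 6474, Mir615 299, Mir196b 235, Mir196a-2 68.1 and Mir196a-1 7.11. Called genes numbered 132 at a log2 ratio over 0.58, among them Mir10b. At any size they numbered 251, among them Mir10a, Mir10b and Mir196b. Under the other settings they numbered 57 to 79, or 9.91 to 19.6% of tested genes, and none of them was a member. The log2 ratio of Mir196a-1 changed sign to 0.00642 under TMM and 0.00659 under DESeq2 scaling, and that of Mir615 to -0.00596 without called genes. All 6 members reached 1 count in both libraries, as did 562 of all 2202 genes. At 100 counts in both libraries 5 members passed, and the share of all genes was not taken. No paired analysis was possible because the series has 1 group.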
